A study of Rattus norvegicus with 6 samples.

Results

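The array used in this study carries 5519 probes whose IDs begin with ASRNV2, out of 38804 probes that are not controls. Membership follows from that prefix alone and uses no measured value, although the prefix was picked with earlier results of these data known. Each has 1 spot on an array. The files give every member the same text as probe name and systematic name, so 0 of the 5519 could be paired with a gene, a transcript accession, a sequence or a position in the genome, and none of these is given here. The series is registered as noncoding RNA profiling by array, but no file used here says which RNA a member detects, so that could not be checked, and the members are described below as probes. The RNA came from bone marrow mesenchymal stromal cells (BMMSCs) taken from rat femurs and kept for 7 days in a medium that induces bone formation. Wistar rats were the normal control (3 arrays) and GK rats the strain the labels give for type 2 diabetes (3 arrays). No other treatment, allele or age is given. All 6 samples were induced, strain and diabetes cannot be told apart, and whether the 3 samples of a group are 3 animals is not stated, so every p-value rests on the variation among these samples, which may be technical. In RNA from whole cultures, fewer cells of a type and less RNA per cell cannot be told apart.

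Long noncoding RNAs are transcripts that carry no long protein-coding frame and act as RNA, for example as guides or scaffolds for chromatin regulators, as decoys for proteins or microRNAs, or through the act of their own transcription. They are known to be less abundant and more restricted to particular tissues than messenger RNAs. In marrow stromal cells several of them, H19 and Meg3 among them, are known to influence the choice between bone and fat. Of a list of 22 such RNAs, 0 had a probe that could be named in these files, so their values are not given. The labelled cell type could not be checked against its defining markers either, because 2 of 35 listed markers had a named probe. These were Enpp1, a mineralisation gene, well above background on 6 arrays, and Map2, a neuronal gene, well above background on 2.

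Signals are given on the log2 scale relative to the 75th percentile of each array, so 0 is the signal at that percentile and a step of 1 is a 2-fold change. The percentile itself lay between 171.6 and 234.8 signal units. Arrays differed in background: the SD of the negative control spots ran from 0.906 (GK replicate 1) to 1.92 (Wistar replicate 1). The file headers give the 3 Wistar arrays and GK replicate 1 one scan time and GK replicates 2 and 3 another. Arrays of one scan time are taken below to share a slide, which no label states. The number of arrays limits the precision of every comparison below.

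Most members were dim, and many were detected on some arrays only. Of the 5519 members, 2189 (39.7%) were well above background, the scanner software's own call, on all 6 arrays, 1556 (28.2%) on 1 to 5 arrays and 1774 (32.1%) on none. The probes whose IDs begin with ASRN6AP1B, the largest set on the array with 28287 probes, were well above background on all 6 arrays in 68.9% of cases and on none in 12.7%. The share of members well above background was 45.2%, 50.5% and 53.0% on Wistar replicates 1 to 3. It was 61.0%, 45.7% and 57.5% on GK replicates 1 to 3. The groups overlapped, with means of 49.6% ± 4.0 (SD, n = 3) in Wistar and 54.7% ± 8.0 (SD, n = 3) in GK cells.

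The low detection of the members went with their low signal. ASRN6AP1B probes weighted to the members' signal levels, in 20 bins of mean level, were well above background in 44.3%, 50.5% and 52.3% of cases on Wistar replicates 1 to 3 and in 61.6%, 46.3% and 58.2% on GK replicates 1 to 3. Averaged over the 6 arrays, the members' share was 0.026 percentage points below that of ASRN6AP1B probes of the same level. It was above theirs on each Wistar array and below theirs on each GK array. The call is itself made from signal over background, so matching by level brings the shares close by construction. The order of the arrays was also shared. GK replicate 1 had the highest share in both sets and Wistar replicate 1 the lowest, and these arrays had the lowest and the highest SD of negative control spots. The dimmest signal still well above background was -5.35 on GK replicate 1, -5.22 on GK replicate 3 and between -4.78 and -4.45 on the other 4 arrays. The part of these limits in the group means was not tested.

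Detection calls favoured the GK arrays. Of the members, 955 (17.3%) were well above background on more GK than Wistar arrays and 341 (6.18%) on more Wistar than GK arrays. Over all probes these shares were 12.9% and 4.35%, also with more probes on the GK side. In 52 members (0.942%) all 3 GK arrays and no Wistar array were well above background, as in 0.781% of all probes. In 4 members (0.0725%) all 3 Wistar arrays and no GK array were, as in 0.0902% of all probes. For such members only a bound on the difference can be given, the bright group's mean against the higher, per array, of the dim probe's signal and the lowest signal well above background. Over the 52 members the median bound was at least 1.33-fold, 11 bounds reached 2-fold, and 5 fell under 1 and give no fold. The highest bound was at least 7.49-fold. All 4 members seen in Wistar cells only had a bound of at least 2-fold, with a median of 4.00-fold.

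The members' median signal was -4.67, -4.48 and -4.34 on Wistar replicates 1 to 3 and -4.31, -4.74 and -4.65 on GK replicates 1 to 3. The group means of these medians were -4.50 ± 0.16 (SD, n = 3) in Wistar and -4.57 ± 0.22 (SD, n = 3) in GK cells, a difference inside the spread of the arrays. The ASRN6AP1B set had medians between -2.15 and -1.99. Probes differ in how well they bind, so a signal level is not an abundance, and no order of abundance between members or sets is read from it.

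A small number of bright members carried most of the set's signal. The 10 brightest members held between 33.3% and 37.5% of the members' summed signal, and the 100 brightest between 81.1% and 85.3%. The brightest member read 9.41, 9.19 and 9.03 on Wistar replicates 1 to 3 and 8.95, 9.38 and 8.94 on GK replicates 1 to 3. Its groups overlapped, its GK minus Wistar difference was -0.12, and it was not called (adjusted p = 0.866 in limma). None of the 10 brightest members passed, with adjusted p-values between 0.506 and 0.955, and 8 of the 10 had a lower mean in GK cells.

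The members' part of the array's whole summed signal was lower on every GK array than on any Wistar array. It was 3.70%, 3.75% and 3.67% on Wistar replicates 1 to 3 and 3.41%, 3.39% and 3.38% on GK replicates 1 to 3, with means of 3.71% ± 0.040 and 3.39% ± 0.016 (SD, n = 3 each). This is a ratio within an array and does not depend on the scaling between arrays. Without the 10 brightest members the shares were 2.38%, 2.43% and 2.40% on the Wistar arrays and 2.16%, 2.16% and 2.28% on the GK arrays. The groups stayed apart. A ratio shows unequal change and not which part changed, and no p is given for a sum over the members.

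The spread between arrays of a group was slightly wider for the members than for ASRN6AP1B probes of the same level. Of the members, 2927 had signal enough to be tested, being well above background on at least 3 arrays and measured on at least 2 per group, and 2592 had not. The median SD of the tested members within groups was 0.37 on the log2 scale. At matched level the median was 0.38 for the members and 0.36 for ASRN6AP1B probes, a ratio of 1.08. Within Wistar the matched medians were 0.29 and 0.28, and within GK 0.40 and 0.37. Without GK replicate 1 the ratio was 1.02, the lowest of the values that leave out 1 array.

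Across the 2917 members measured on all 6 arrays, signals correlated at Pearson's r of 0.952 to 0.973 between Wistar arrays and 0.921 to 0.957 between GK arrays. Between a Wistar and a GK array r lay between 0.917 and 0.940. GK replicates 1 and 2, on different slides, correlated at 0.957, and GK replicate 3 correlated at 0.921 and 0.949 with them and at 0.939 with Wistar replicate 3. These values describe probes that share an array and its normalisation. Among ASRN6AP1B probes the correlations ran from 0.942 to 0.986. There GK replicate 3 correlated at 0.947 and 0.961 with GK replicates 1 and 2 and at 0.973 with Wistar replicate 3. Its closeness to that Wistar array is thus not particular to the members. A correlation also depends on the range of signal in a set, and the part of that range in the difference between the sets was not tested.

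The comparison of GK with Wistar cells asks which of these probes differed in signal after induction. Among the 2927 members tested, 16 had a limma adjusted p under 0.05 with adjustment over all 27920 probes tested, 11 higher and 5 lower in GK cells. The split moved with the processing and the model. It was 8 higher and 5 lower with the array median, 8 and 8 with quantile normalisation and 7 and 9 with the authors' deposited table. With normexp, a background correction, it was 3 and 3, and with the replicate number as a block 6 and 6. The 16 are 0.547% of the members. Over all tested probes 0.358% were called, 0.197% higher and 0.161% lower. Among ASRN6AP1B probes weighted to the members' levels 0.423% were called. The members' 95% intervals had a median half-width of 0.68 in log2 units (1.60-fold), and the smallest difference called was 2.46-fold in the fit. The member nearest to the threshold on the far side had an adjusted p of 0.0533 and a difference of -4.27, and the last one inside had an adjusted p of 0.0466 and a difference of 1.30.

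The number of members called depended on single arrays. Without Wistar replicates 1, 2 and 3 it was 3, 2 and 4, and without GK replicates 1, 2 and 3 it was 8, 4 and 60. Calls over all tested probes moved too, from 0.358% with all arrays to 2.38% without GK replicate 3. For the other arrays left out that share is not given, so these counts are not read as particular to the members. Within the shared slide, where GK replicate 1 alone stands against the 3 Wistar arrays and is assumed to vary like them, 2 members passed, 0.0684% of the members tested, where 0.0824% of all probes tested were called. With the slide as a random block 10 passed, all of them among the 16. After another background correction, normexp, 6 members were called.

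Only 6 of the 16 members called were well above background on all 6 arrays. Of the 11 higher in GK cells, 8 had no Wistar array well above background, and of the 5 lower, 1 had no GK array well above background. These 9 were tested only because the brighter group was detected, and their fitted differences are no measure of size. Among the 8, 1 bound fell under 1 and gives no fold, and the others ran from at least 1.03-fold to at least 7.49-fold. The bound for the member lower in GK cells was at least 4.28-fold. The largest of these bounds belonged to a member that read -6.54, -6.49 and -6.67 on Wistar replicates 1 to 3 and -2.40, -1.55 and -1.31 on GK replicates 1 to 3.

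The files pair no member with a name, so 4 are given by ID, those with the largest difference each way among called members detected above background on every array. ASRNV20029042V3 read 0.32, 0.27 and 0.75 on Wistar replicates 1 to 3 and 4.47, 3.73 and 3.29 on GK replicates 1 to 3. Every GK array lay above every Wistar array by more than 2 log2 units. The GK mean was 3.83 ± 0.60 and the Wistar mean 0.45 ± 0.26 (SD, n = 3 each), which is 10.4-fold higher in GK cells (log2 difference 3.38, standard error 0.33, limma adjusted p = 0.0151). Its difference lay between 3.06 and 4.02 in all 19 alternatives. It passed in 13 of them and not without Wistar replicate 1 (adjusted p = 0.0776), 2 (0.0763) or 3 (0.0547), without GK replicate 2 (0.0821), with the slide as a fixed block (0.0674) or within the shared slide (0.0573).

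ASRNV20026862V3 was the other member higher in GK cells. It read -2.64, -2.91 and -2.83 on Wistar replicates 1 to 3 and -0.90, -0.72 and -1.05 on GK replicates 1 to 3, with the groups well apart and little spread in either. The difference was 1.90 (standard error 0.19), a 3.74-fold higher mean (limma adjusted p = 0.0151). After normexp the difference was 0.91 (adjusted p = 0.0568), and it was between 1.82 and 2.02 in the other alternatives. It did not pass when any array except GK replicate 3 was left out (adjusted p between 0.0622 and 0.101), with the replicate number as a block (0.0566), within the shared slide (0.109) or with the slide as a fixed block (0.192).

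Among the members lower in GK cells, ASRNV20030979V3 read 0.30, -0.82 and -0.73 on Wistar replicates 1 to 3 and -3.62, -3.77 and -4.18 on GK replicates 1 to 3. Wistar replicate 1 stood above the other Wistar arrays, and all GK arrays were far below all Wistar arrays. The mean was 10.9-fold higher in Wistar cells (log2 difference -3.44, standard error 0.35, limma adjusted p = 0.0151). The difference was -1.65 after normexp and still passed (adjusted p = 0.0446). It did not pass without Wistar replicate 3 (0.0587), GK replicate 1 (0.0703) or GK replicate 2 (0.0831), within the shared slide (0.138) or with the slide as a fixed block (0.250).

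ASRNV20036672V3 read 0.11, -0.17 and -0.033 on Wistar replicates 1 to 3 and -2.13, -1.79 and -1.87 on GK replicates 1 to 3. Its spread within both groups was small beside the gap between them. The difference was -1.90 (standard error 0.19), a 3.73-fold higher mean in Wistar cells (limma adjusted p = 0.0151). It was -1.27 after normexp and -2.09 within the shared slide. It passed without GK replicate 3 (adjusted p = 0.0190) and not when any other array was left out (0.0537 to 0.0954), with the replicate number as a block (0.0585), within the shared slide (0.102) or with the slide as a fixed block (0.144).

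Leaving out GK replicate 3 raised the count, where leaving out any other array lowered it. Without it 60 members passed, 30 higher and 30 lower, among them all 16 called with it. This is 2.05% of the members tested, where 2.38% of all probes tested were called. GK replicate 3 took no part in that fit, so its signals could be set against it. In 34 of the 60 members it lay nearer to the mean of GK replicates 1 and 2 and in 26 nearer to the Wistar mean. In 10 it lay inside the range of the Wistar arrays. All 26 were among the 44 members not called with all arrays, and 18 of the 44 lay nearer to the GK mean. The 16 were called with GK replicate 3 in the fit, so their side was largely fixed by that choice. The split into 16 and 44 is therefore no separate check. The same counts over all probes are not given, so these are not read as particular to the members. What sets GK replicate 3 apart was not tested.

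Small differences leaned towards lower signal in GK cells. Of the 2927 members tested, 1713 (58.5%) had a lower and 1214 a higher mean in GK cells, with a median log2 difference of -0.086. Over all tested probes 50.4% were lower and the median was -0.0040. Arrays of the groups overlapped in the members' median relative to each probe's mean, as given below, so the lean is one of group means. In 338 members (11.5%) every GK array was below every Wistar array, where 8.63% of all tested probes were, and in 225 (7.69%) every GK array was above, where 9.98% were. At an unadjusted p under 0.05 in limma, 255 members (8.71%) were lower and 156 (5.33%) higher, against 6.67% and 5.93% of all tested probes. The lean was one of small differences. The middle 50% of the members lay between -0.36 and 0.20, and 276 members (9.43%) differed by at least 2-fold in the fit, where 7.88% of all tested probes did. The 2-fold shares are not matched by level, and the tested members were dimmer, with a median level of -2.75 against -1.44. A filter that keeps members through their brighter group bears on these counts. Without it 61.6% of the 5518 members with a fit were lower. Of the 2178 well above background on all 6 arrays, with outlier-flagged spots counted as not detected, 60.2% were.

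ASRN6AP1B probes weighted to the members' levels were lower in GK cells in 48.9% of cases, 9.67 percentage points below the members' 58.5%, and their median difference was 0.0077. Their own share moved with the processing, to 58.5% with normexp, 54.1% without the filter, 53.6% without Wistar replicate 1 and 53.9% without GK replicate 1, where the members' shares were 66.1%, 61.6%, 63.2% and 60.5%. In 5 bands of mean level, set after the values were seen, the members' share lower was above that of ASRN6AP1B probes each time. Below a level of -4 it was 55.2% of 603 members against 50.5%, from -4 to -1 it was 59.2% of 1622 against 48.6%, and from -1 to 2 it was 57.6% of 524 against 48.2%. From 2 to 5 it was 61.3% of 124 members against 44.0%. Among the 54 members at a level of 5 or more, 41 (75.9%) were lower, against 52.8% of ASRN6AP1B probes, with median differences of -0.25 and -0.019. Relative to each probe's mean, these members lay at 0.38, 0.099 and -0.16 on the Wistar arrays in order of replicate. On the GK arrays they lay at -0.36, 0.23 and -0.19, so the groups overlapped. Arrays within either group lay further apart than the members' median difference. The ASRN6AP1B probes of this band overlapped too, at 0.24, -0.0012 and -0.19 on the Wistar and -0.25, 0.30 and -0.11 on the GK arrays. None of these 54 bright members passed the test on its own.

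Set against ASRN6AP1B probes of the same level, the members lay higher on all Wistar arrays and lower on all GK arrays. Each array's signals were first taken relative to the probe's mean over the 6 arrays. On this scale the members' median was -0.073, 0.051 and 0.14 on Wistar replicates 1 to 3. It was 0.093, -0.10 and -0.11 on GK replicates 1 to 3, so the groups overlapped. The median for ASRN6AP1B probes of the same level ran from -0.11 to 0.16. It was subtracted, array by array, from the members' median. The members' offset was then 0.037, 0.048 and 0.038 on Wistar replicates 1 to 3 and -0.068, -0.036 and -0.038 on GK replicates 1 to 3. The means were 0.041 ± 0.0062 in Wistar and -0.047 ± 0.018 in GK cells (SD, n = 3 each), and the groups did not overlap. The gap between the group means was under 0.1 on the log2 scale and larger than the spread of the arrays within either group. No p is given for a value over the members, since the prefix was picked with earlier results of these data known. By the same measure the 2160 probes whose IDs begin with ASRN6LNC1A lay at 0.035, 0.040 and 0.068 on the Wistar arrays and at -0.0018, -0.071 and -0.065 on the GK arrays, so the direction was shared by both sets, and their difference was not tested.

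With GK replicate 1 alone set against the Wistar arrays, fewer members were lower than higher, while the offset from ASRN6AP1B probes kept its sign. An effect of the slide cannot be told apart from one of that array. With the slide as a fixed block, where only GK replicate 1 informs the difference, 45.7% of the members were lower and the median difference was 0.060. All tested probes also moved, to 44.5% and 0.071. At matched level 37.7% of ASRN6AP1B probes were lower, 8.00 percentage points below the members. The difference between the medians of the sets at matched level was -0.094 with all arrays, -0.10 with the slide as a fixed block and -0.11 within the shared slide. It lay between -0.10 and -0.083 when each array was left out. The arrays' offsets from ASRN6AP1B probes do not overlap between the groups, so leaving out 1 array could hardly turn its sign. After normexp it was -0.041.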

How the data were processed

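Total RNA of 6 BMMSC samples was labelled with Cy3 and hybridised to 1 Agilent array each, per the labels. Intensity values are the authors' Feature Extraction 11.0.1.1 output, per the file headers, background-corrected and not normalised between arrays. The authors' deposited log2 table was used as an alternative; the sources used here do not give its normalisation. The flags well above background, positive and significant, and outlier are the software's own.

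Control spots and outlier-flagged spots (0.356% to 1.21% of an array) were left out, spots of a probe were averaged, and log2 signals were set relative to the array's 75th percentile. The shares well above background kept outlier-flagged spots, while the filter for the test counted them as not detected. No member was saturated. Probes well above background on at least 3 arrays and measured on at least 2 arrays per group were tested with limma 3.58.1 in R 4.3.3 (lmFit, eBayes, two-sided, Benjamini-Hochberg over all 27920 probes). Level matching weighted ASRN6AP1B probes to the members over 20 bins, each with at least 20 of them. The fit was first tested on simulated data.

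The members and lists were chosen with earlier results of these data known. The rule for probe IDs was the 2 largest differences each way among called members detected above background on every array. The replicate numbers were not used as pairs: deviations of same-numbered arrays correlated at 0.0087, 0.099 and 0.42. No genome coordinate or probe sequence was used.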

Additional observations from a re-analysis of the deposited data

How the results depend on the processing

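The 16 members at an adjusted p under 0.05 were 13 with the array median, 16 with quantile normalisation, 16 with the authors' table (10 of them shared), 14 without the filter and 12 with a variance trend. They were 6 with normexp, 7 on probes well above background on all 6 arrays (fewer tested), 45 with array weights, 2 with the slide as a fixed block, 10 as a random block and 2 within the shared slide. Leaving out each array gave 2 to 60. For most of these alternatives the share called over all tested probes is not given, so the changes are not read as particular to the members. The replicate number as a block gave 12 members, 6 of them shared with the 16; no label states that a number pairs samples.

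The share of tested members lower in GK cells was 56.0% with the array median, 66.1% with normexp, 54.9% with the authors' table, 61.6% without the filter, 54.5% with outlier-flagged spots kept, 60.3% with array weights, 45.7% with the slide as a fixed block, 54.6% as a random block and 45.7% within the shared slide, and 51.8% to 63.2% when each array was left out. Its excess over ASRN6AP1B probes of the same level was 9.67 percentage points, 7.69 with normexp, 7.49 without the filter and 6.57 to 9.68 without each array. The matched difference in medians, -0.094, was -0.041 with normexp, -0.080 without the filter, -0.11 within the shared slide and -0.10 to -0.083 without each array. The median difference of the members, -0.086, lay between -0.14 and -0.020 without each array and rose above 0, to 0.060, with slide as a fixed block.

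The median SD of 0.37 was 0.17 with normexp and 0.30 to 0.39 without each array. Its ratio to ASRN6AP1B probes, 1.08, was 1.04 with normexp, 1.04 with each member paired to the probe nearest in level, and 1.02 to 1.08 without each array. With the positive-and-significant flag in place of well above background, 78.3% of members on GK and 72.9% on Wistar arrays were detected. Leaving out each array gave 51.6% to 59.2% and 47.9% to 51.8%, an alternative chosen after seeing the data, as were the bands of level, the ASRN6LNC1A values and the sums without the brightest members. Relative to the array median the members' medians were -1.76 in GK and -1.72 in Wistar cells. No direction of the 4 probes given by ID reversed. The cause of these changes was not tested. Signal over background limits 9 of the 16 called differences to a bound.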
